A study of Mus musculus with 6 samples.

Results

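The 136 genes described here encode chemokines, interleukins and their receptors. They are the protein-coding genes of the RefSeq annotation of GRCm38 whose symbol begins with Ccl, Cxcl, Ccr, Cxcr or Il followed by a number, with Il6 left out, and they were taken from 21900 protein-coding genes. By role they comprise 25 CC chemokine ligands, 12 CXC ligands, 11 CC receptors, 6 CXC receptors, 37 interleukin ligands, 40 interleukin receptors and 5 other interleukin-named genes. The last class holds the antagonists Il1rn and Il18bp, the decoy receptor Il22ra2, the amino acid oxidase Il4i1, and Il4i1b, a longer gene model that overlaps Il4i1. RUNX1 binding at these genes was measured by chromatin immunoprecipitation and sequencing (ChIP-seq) in granulosa cells, the somatic cells around the oocyte, from mice of a cross of CBA with C57BL/6 (F1) aged 21 days. Per the labels, the mice received 5 IU of equine chorionic gonadotropin (eCG) and, 46 h later, 5 IU of human chorionic gonadotropin (hCG), and cells were pre-ovulatory (0 h) or peri-ovulatory (6 h after hCG). There were 2 RUNX1 libraries per time point and 1 pooled input per time point, which makes 6 samples. The labels do not say whether the 2 libraries of a time point came from separate animals, so the spread between them may be technical, and the treatment text of the 0 h samples is the same as that of the 6 h samples. In bulk chromatin, a site bound in fewer cells and a site bound less often per cell cannot be told apart.

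Chemokines are small secreted proteins that guide leukocytes, and they signal through receptors that span the membrane repeatedly and couple to G proteins. Most interleukin receptors are paired chains that signal through JAK kinases and STAT factors, while receptors of the interleukin-1 family and the interleukin-17 receptors signal through adaptors toward NF-kappaB. Ovulation has many features of an inflammatory reaction, with cytokines made in the follicle and leukocytes entering its wall. RUNX1 is a DNA-binding factor that recognises a short core written TGTGGT, or ACCACA on the opposite strand.

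The sequences below show 6 start sites that lay inside a replicated 6 h region, meaning a merged interval with a peak in both 6 h libraries. Each is the 250 bases before the start, 5′ to 3′ on the strand of the gene, from the RefSeq promoter table of GRCm38.p6, with any TGTGGT or ACCACA in capitals. The first 3 are those among the covered starts in which these letters occurred, and the other 3 belong to the highest-ranking regions at a covered start. Il18 (interleukin-18, a cytokine of the interleukin-1 family) lies at chr9:50554450-50554699 on the + strand, Il9r (interleukin-9 receptor) at chr11:32200280-32200529 on the − strand, and Cxcr3 (receptor of Cxcl9 and Cxcl10) at chrX:101734148-101734397 on the − strand. Il6st (the shared signalling chain gp130) lies at chr13:112463820-112464069, Ccl25 (a ligand of Ccr9) at chr8:4324960-4325209 and Il3ra (the interleukin-3 receptor alpha chain) at chr14:14346245-14346494, all on the + strand.
Il18: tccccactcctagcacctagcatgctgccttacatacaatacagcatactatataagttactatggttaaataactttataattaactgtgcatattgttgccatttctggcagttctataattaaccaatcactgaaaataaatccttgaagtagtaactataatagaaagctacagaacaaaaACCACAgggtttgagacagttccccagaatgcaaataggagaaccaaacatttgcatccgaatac
Il9r: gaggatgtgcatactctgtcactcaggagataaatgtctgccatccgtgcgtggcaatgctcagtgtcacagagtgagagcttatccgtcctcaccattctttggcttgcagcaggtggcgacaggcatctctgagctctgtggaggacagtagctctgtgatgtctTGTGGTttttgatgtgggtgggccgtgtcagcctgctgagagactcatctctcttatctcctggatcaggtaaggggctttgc
Cxcr3: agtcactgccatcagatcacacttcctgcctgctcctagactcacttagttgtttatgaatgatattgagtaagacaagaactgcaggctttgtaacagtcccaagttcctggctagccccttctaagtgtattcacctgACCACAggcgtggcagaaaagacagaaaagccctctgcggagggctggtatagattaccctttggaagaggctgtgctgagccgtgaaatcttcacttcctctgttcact
Il6st: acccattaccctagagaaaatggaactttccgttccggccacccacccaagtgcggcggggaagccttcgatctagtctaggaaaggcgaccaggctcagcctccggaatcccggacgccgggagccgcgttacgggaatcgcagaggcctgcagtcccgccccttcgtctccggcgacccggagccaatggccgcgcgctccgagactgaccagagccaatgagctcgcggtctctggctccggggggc
Ccl25: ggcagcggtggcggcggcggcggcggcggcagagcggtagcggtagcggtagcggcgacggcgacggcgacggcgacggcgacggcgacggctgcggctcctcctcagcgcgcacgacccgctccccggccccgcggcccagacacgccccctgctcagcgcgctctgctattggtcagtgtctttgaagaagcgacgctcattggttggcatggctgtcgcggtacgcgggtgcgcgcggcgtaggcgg
Il3ra: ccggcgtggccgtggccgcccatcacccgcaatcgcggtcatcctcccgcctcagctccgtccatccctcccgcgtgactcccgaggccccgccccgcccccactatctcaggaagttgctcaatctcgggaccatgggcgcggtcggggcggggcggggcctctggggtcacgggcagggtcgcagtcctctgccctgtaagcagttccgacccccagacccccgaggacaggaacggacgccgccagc
The core letters were present in the window from 250 bases before to 50 after the start of 3 of the 10 member starts covered by a replicated 6 h region. They were present in 31 of all 126 member windows, or 24.6%, and in 15.0% of all 21262 protein-coding windows. Among other genes, 11.8% of the covered and 16.5% of the uncovered windows held them. Cxcr3 held ACCACA at positions −110 and 11, Il18 at −65, and Il9r TGTGGT at −83, counted from the start site as 0. The match at position 11 lies beyond the printed stretch. A match describes the letters only, and no match says only that these letters are absent from the window.

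In every library, fewer of the chemokine and interleukin genes than of the other 21763 protein-coding genes had a RUNX1 peak with its summit inside the gene or within 10 kb of either end. At 0 h, replicate 1 had a peak at 0 of the 136 genes, a count of 0 that allows a share of up to 2.21% by the limit of 3 counts and 2.68% by the exact interval, against 4.43% of other genes. In 0 h replicate 2, 7 members had a peak, or 5.15% (exact Clopper-Pearson 95% CI 2.09 to 10.3), against 15.2% of other genes. The 6 h libraries had peaks at many more members. In 6 h replicate 1, 40 members had a peak, or 29.4% (95% CI 21.9 to 37.8), against 53.9% of other genes. In 6 h replicate 2, 55 members had one, or 40.4% (95% CI 32.1 to 49.2), against 62.6%. The member intervals lay below the share of other genes in all 4 libraries. Intervals treat genes as independent and cover counting error only.

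**Figure D1:**
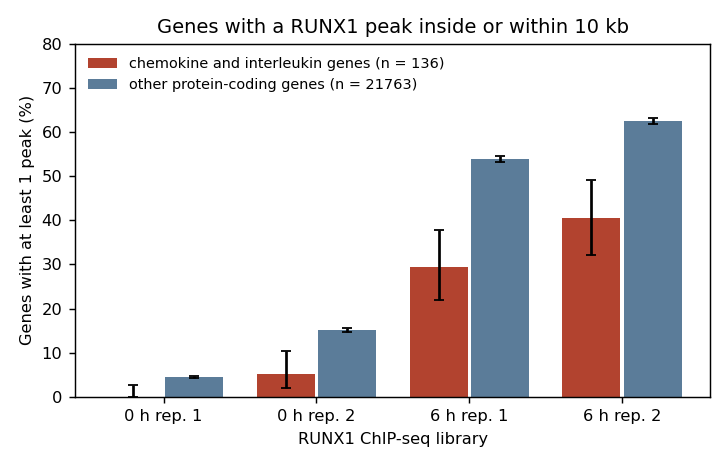
Share of genes with at least 1 RUNX1 peak inside the gene or within 10 kb of either end (y axis, percent) in each of the 4 libraries (x axis), for the 136 chemokine and interleukin genes (red) and the 21763 other protein-coding genes (blue). Error bars are exact 95% binomial intervals, and the red bars run from 0 in 0 h replicate 1 to 40.4% in 6 h replicate 2, below the blue bar of the same library each time.

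Averaged over the libraries of a time point (SD, n = 2), 2.57% ± 3.64 of members had a peak before hCG and 34.9% ± 7.80 had one after it, a difference of 32.4 percentage points (exact permutation test over libraries, two-sided, p = 0.333, the smallest p that 2 against 2 libraries can give). With the 948 peaks of lowest p-value in each library, this difference fell to 1.10 points, from 0 members in both 0 h libraries to 1.47% and 0.735% in the 6 h libraries. Member share minus other share was −7.23 ± 3.97 points at 0 h and, over the 6 h libraries, −23.3 ± 1.65 points (SD, n = 2). The change of this difference from 0 h to 6 h was −16.1 points (exact permutation test, two-sided, p = 0.333). The 6 h lists were far longer than the 0 h lists, with 18761 and 28671 peaks against 948 and 3135. With 948 peaks per library, the member share lay −4.62 points from that of other genes at 0 h and −3.25 at 6 h, so the change was 1.37 points with the opposite sign, with a window of 50 kb it was 0.575, and without clustered members it was −6.60.

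In both 6 h libraries together, 38 members had a peak, 17 had one in replicate 2 only and 2 in replicate 1 only. The share with peaks in replicate 2 only was 12.5%, against 9.08% of other genes. No peak in any of the 4 lists was found for 79 members, or 58.1%, against 37.0% of other genes. Regions found in both 6 h libraries lay at 37 members, which is 27.2% of them (interval 19.9 to 35.5), while 53.3% of other genes had one. These 37 genes carried 57 distinct regions in 59 pairs of gene and region, since 2 regions were shared by Il4i1 and Il4i1b. No replicated region lay at any member at 0 h, against 4.12% of other genes, and this count of 0 rests on replicate 1, because replicate 2 alone gave 7 members.

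Counts were also taken by role, with no test of the differences between roles. Replicated 6 h regions lay at 14 of the 74 ligand genes of all classes, which is 18.9% (interval 10.7 to 29.7), and at 21 of the 57 receptor genes, which is 36.8% (interval 24.4 to 50.7), while 53.3% of other genes had one. Receptor genes were also longer, with a median of 20551 bp against 5222 bp for ligands, and the part of length in this difference was not tested. CC ligands were the sparsest class, with peaks at 3 of 25 genes in 6 h replicate 1 and 4 of 25 in replicate 2. Interleukin receptors had peaks at 17 of 40, or 42.5% against 53.9% of other genes, in replicate 1 and at 25 of 40, or 62.5% against 62.6%, in replicate 2. CXC ligands had 5 and 6 of 12, CC receptors 2 and 2 of 11, CXC receptors 2 and 4 of 6, and interleukin ligands 9 and 12 of 37. The intervals of CC ligands and interleukin receptors overlapped in replicate 1 (2.55 to 31.2% and 27.0 to 59.1%) and did not in replicate 2 (4.54 to 36.1% and 45.8 to 77.3%).

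**Figure D2:**
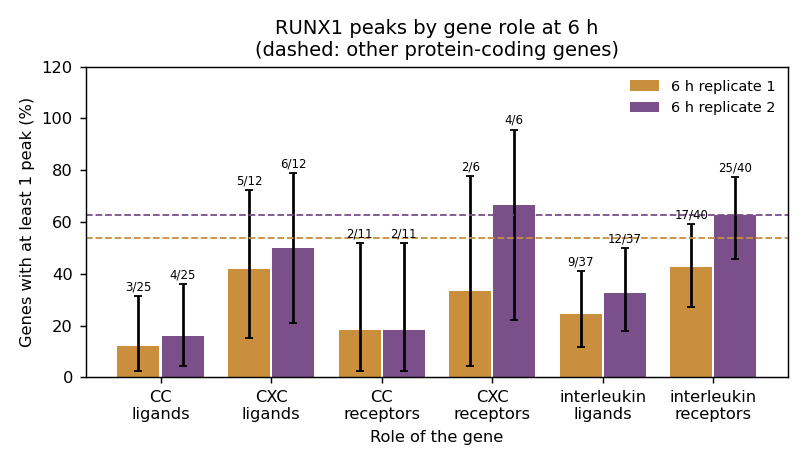
Share of genes of each role with at least 1 peak (y axis, percent) in 6 h replicate 1 (ochre) and replicate 2 (purple), with exact 95% binomial intervals and the count of genes above each bar. Dashed lines mark the share of other protein-coding genes, 53.9% and 62.6%, and CC ligands lie lowest among the ligand classes at 3 and 4 of 25 genes.

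Before hCG, the 7 members with a peak in 0 h replicate 2 were Il6st, Il6ra, Il3ra, Il4i1b, Ccr10, Ccl17 and Cxcr3. Their folds, the enrichment over local background given by the authors, ran from 5.21 at Il6st to 7.41 at Cxcr3, at percentiles 9.44 to 53.4 of that list. The summit pileups recovered from fold and p-value held 24 to 36 reads, while the lowest pileup found among weak peaks was 19 in that list and 20 in 0 h replicate 1. Of the 7, only the Cxcr3 peak lay above the median of the list. All 7 had a replicated 6 h region, as did 98.9% of the 3305 other genes with a peak in that library, and each of the 7 peaks overlapped 1 such region. The region overlapped at Il4i1b had its summit inside Atf5 and Nup62 as well. Of the 57 member regions at 6 h, 7 overlapped a 0 h peak, or 12.3% (95% CI 5.08 to 23.7), against 16.9% of the 14446 regions at other genes only. None of the 7 held at a −log10 q of at least 20, where 0 of 33 member regions overlapped a 0 h peak.

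Interleukin receptor genes held the highest-ranking member regions. Il3ra encodes the chain that gives the interleukin-3 receptor its ligand specificity. Its region at chr14:14345503-14346508 had a fold of 28.5 in 6 h replicate 1 and 32.4 in replicate 2, with 142 and 128 reads at the summit, and 6.91 with 25 reads in 0 h replicate 2. The summit of 6 h replicate 1 lay 346 bp inside the annotated gene, and that of 6 h replicate 2 lay 225 bp outside it. Their mean, taken as the summit of the region, lay 60 bp inside the gene and at −523 bp from the start whose sequence is shown above. This region was the highest member region by mean percentile of fold, 96.4, and the sequence printed holds no core letters.

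Il6st was next. Its protein, gp130, is the signalling chain shared by the receptors of interleukin-6, interleukin-11 and LIF. The region at chr13:112463311-112464739 had its summit 114 bp after the start, with folds of 25.7 and 29.4 in the 6 h replicates and 5.21 in 0 h replicate 2. Il6ra encodes the ligand-binding chain that partners it. Il6ra had 5 replicated 6 h regions, more than any other member, of which 4 lay inside the gene. The strongest, at chr3:89905107-89906257 and 7483 bp after the start, had folds of 17.5 and 28.4, with 101 and 186 reads, and a fold of 5.67 in 0 h replicate 2. A second at chr3:89912537-89913553, 15 bp from the start, had 11.8 and 20.6 and no 0 h peak. Il11ra1, the receptor chain for interleukin-11, had 13.7 and 29.2 at chr4:41759098-41760730, 1007 bp before its start but 193 bp from an end of Galt. Il11ra2, its near-identical copy, had 1 peak, in 6 h replicate 2.

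The genes of interleukin-1 receptors on chromosome 1 showed a contrast between neighbours. Il1r2, Il1r1, Il1rl2, Il1rl1, Il18r1 and Il18rap span 467 kb, and neither 0 h library had a peak within 10 kb of this span. Il1rl2, the receptor chain for interleukin-36, had 3 replicated regions inside the gene, all found only at 6 h. The region at chr1:40358522-40359236, 34298 bp after the start, had folds of 21.8 and 31.3. The region at chr1:40339288-40340430, 15056 bp after the start, had 19.4 and 34.1, with 112 and 160 reads. The region at chr1:40351904-40352480 had 14.1 and 27.4. These lay away from the start of Il1rl2, and the nearest protein-coding gene end of each was an end of Il1rl2 itself.

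Il1r1, the signalling receptor of interleukin-1, differed between the 6 h libraries. It had 1 peak in replicate 1 and 8 in replicate 2, of which 1 lay outside Il1r1, 54 bp from an end of Il1rl2. The single replicated region at chr1:40284470-40285383 had 8.0 and 16.6, while the strongest peak of replicate 2, at chr1:40294749-40295159 with a fold of 21.4, had no partner in replicate 1. Il1r2, the decoy receptor, and Il1rl1, Il18r1 and Il18rap, the receptor chains of interleukin-33 and interleukin-18, had no peak in any library. Elsewhere, among genes chosen after their values were seen, Il1rap, the accessory chain shared by several of these receptors, had a region at its start at 6 h, with 6.49 and 15.0. The related Il1rapl1 and Il1rapl2, 1375012 and 1278324 bp long, held no peak in any library.

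**Figure D3:**
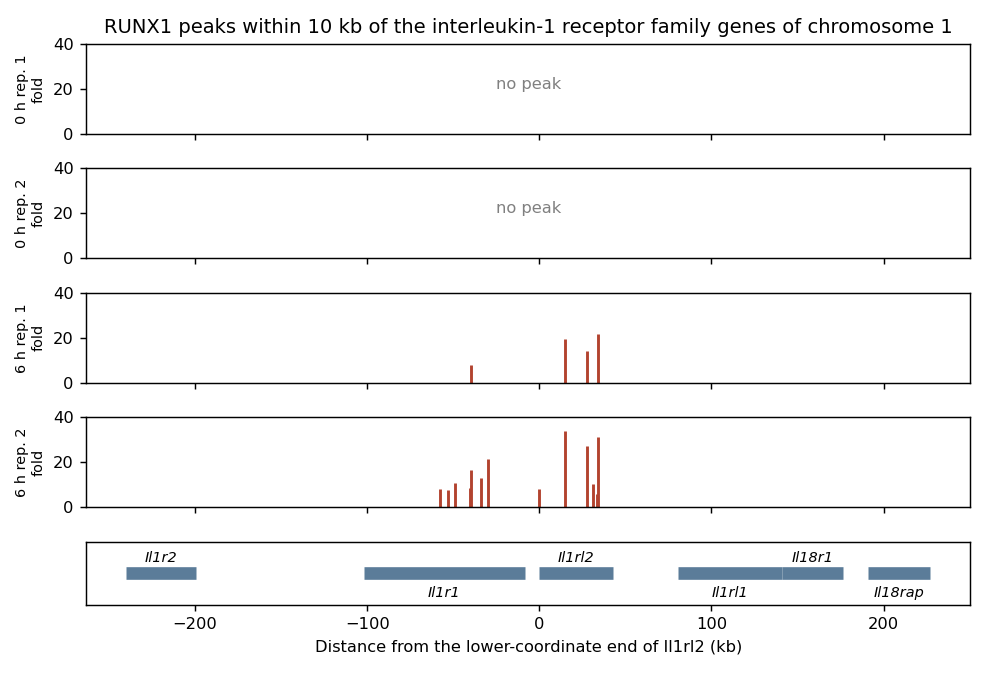
RUNX1 peaks within 10 kb of the 6 interleukin-1 receptor family genes of chromosome 1, drawn by library at the distance of the summit from the lower-coordinate end of Il1rl2 (x axis, kb), with line height giving the fold (y axis), and with the gene bodies as blue bars. The 0 h panels are empty, the 3 tall lines inside Il1rl2 occur in both 6 h replicates, and 6 h replicate 2 has further peaks in Il1r1.

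Regions at interleukin-17 receptor genes ranked either high or low. Il17ra, the common chain, had 4 replicated 6 h regions, the strongest at chr6:120453104-120453694 with 11.9 and 34.4, outside the gene by 9844 bp and nearer to Kdm5a. Its mean percentile was 85.0, while the 3 inside the gene lay at 25.3 to 31.3 with lower folds, from 4.87 to 6.39 in replicate 1 and from 9.42 to 10.8 in replicate 2. A region near Il17rc, with 13.6 and 20.4, lay 63 bp from an end of Creld1. Il2rb, a chain of the receptors for interleukin-2 and interleukin-15, had 8.83 and 14.4 inside the gene, and Il22ra1 had 8.69 and 15.9 at −262 bp from its start. None of these genes had a peak at 0 h.

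Interleukin ligands with a replicated 6 h region numbered 9 of 37, or 24.3%, against 53.3% of other genes. Il25, a cytokine of type 2 immunity, had 14.5 and 34.96 at chr14:54929919-54930374, 2538 bp outside the gene. Il18 had 2 regions, one 15675 bp after the start with 13.7 and 29.9 and one 142 bp after it with 12.8 and 26.2. Both lay inside Il18, but the nearest gene end to the first was one of Tex12, at 9107 bp. The second lay inside Bco2 as well. Il17a had 13.1 and 29.0 at 5159 bp before its start. These folds lay at mean percentiles of 84.6 to 89.7 in the 6 h lists. The region near Il23a, with 9.19 and 15.7, lay 145 bp from Pan2. Folds lower than this in replicate 1 belonged to Il2, with 8.24 and 15.96, Il9, with 8.46 and 13.4, and Il7, with 5.47 and 21.0. In replicate 2, Il2 and Il7 had higher folds than Il23a. For Il7 the percentile of fold was 11.1 in replicate 1 and 86.2 in replicate 2, so its rank rests on 1 library. The antagonist Il1rn and the cytokines Il1b, Il33, Il10 and Il15 (named after their values were seen) had no peak in any library, and the nearest replicated 6 h region to Il1b was 67433 bp away.

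Chemokine genes had a replicated 6 h region at 9 of 54, or 16.7% (95% CI 7.92 to 29.3), against 53.3% of other genes. Ccl25, which attracts thymocytes and gut lymphocytes, had the region with the highest mean percentile, at chr8:4324468-4325663 with its summit at −28 bp from the start, folds of 18.9 and 28.0 and no 0 h peak. In replicate 2 alone, Cxcr3 and Ccl17 had higher folds than Ccl25. Cxcr3 had 15.5 and 31.7 at 213 bp after its start, and 7.41 in 0 h replicate 2. Ccl17, a ligand of Ccr4, had 14.6 and 29.3 inside the gene and 6.801 in 0 h replicate 2. Ccr10, a skin-homing receptor, had 3 regions with 14.2 to 14.8 in replicate 1 and 19.1 to 20.2 in replicate 2, 1 of them inside the gene and all nearer to an end of Plekhh3 or Cntnap1 than to one of Ccr10. Cxcl17 had 9.37 and 15.9 near Lipe, and Cxcl9 had 8.24 and 15.8, 869 bp from Art3. Only Ccl25, Cxcr3 and Ccl17 of these 6 genes had their strongest region nearest to an end of their own.

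Some chemokine genes were examined after their values were seen. Cxcr4, the receptor of Cxcl12, had a replicated region 1010 bp before its start, with 5.13 and 11.2 and 33 and 52 reads. Cxcl12 itself had a single peak, in 6 h replicate 2, with a fold of 7.31, and Cxcl1, a neutrophil attractant, had 5.6 and 8.75 at 197 bp after its start. These folds lay between percentiles 8.14 and 53.8 of their lists, with the Cxcr4 value of replicate 2 the highest. A call at 6 h in replicate 2 alone was also made for Cxcr1, Cxcr5, Cxcl3, Il2ra, Il2rg and Il7r, with folds of 5.08 to 14.04.

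**Figure D4:**
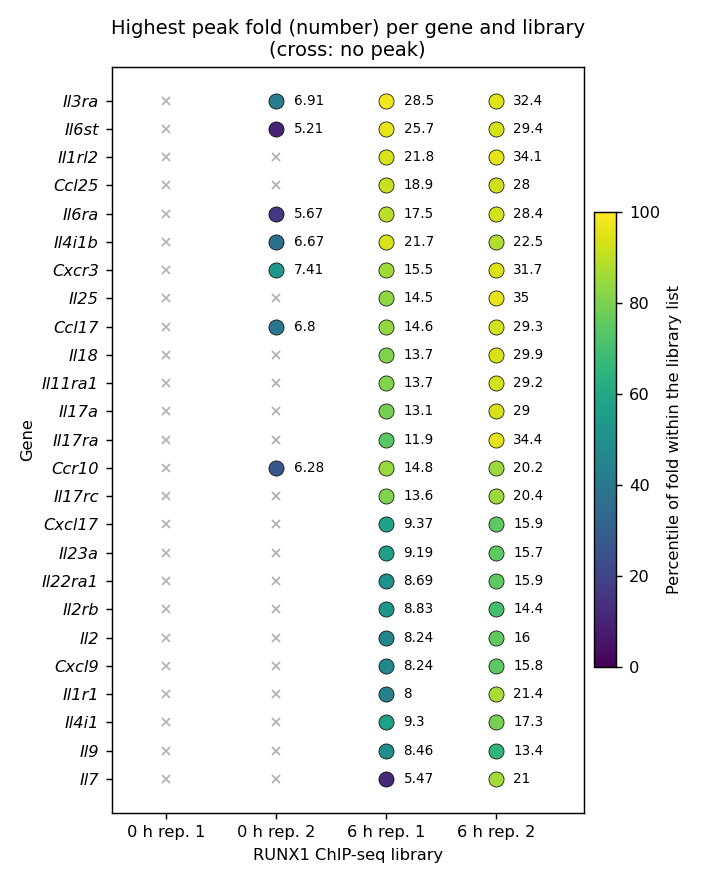
Highest peak fold (number beside each point) of the 25 genes with the highest-ranking replicated 6 h region, in each library (x axis), with genes ordered by the mean percentile of that region. Colour gives the percentile of the fold within the library list and a cross marks no peak: 0 h replicate 1 has crosses throughout, 0 h replicate 2 has 7 points between 5.21 and 7.41, and every gene has a point in both 6 h libraries.

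Most members that lie in gene clusters had no peak nearby. In 9 clusters of at least 3 members less than 100 kb apart, which held 44 genes, 3 genes had a replicated 6 h region, or 6.82%, and of the 92 members outside clusters 34 had one, or 37.0%, while the share of other genes was 53.3%. The difference between clustered and other members was not tested. No peak of any library lay in 5 of the clusters. One was the monocyte chemoattractant cluster of Ccl2, Ccl7, Ccl11, Ccl12, Ccl8 and Ccl1, which spans 144 kb of chromosome 11, and the nearest replicated 6 h region to Ccl2 was 744057 bp away. Further ones were Ccl5, Ccl9, Ccl6, Ccl3 and Ccl4 over 139 kb, Il24, Il20, Il19 and Il10 over 143 kb, and the interleukin-1 family ligands from Il1f8 to Il1rn over 198 kb. The type 2 cytokine cluster of Il4, Il13 and Il5 had 3 peaks, all in 6 h replicate 2, of which 1, at Il13, lay within 10 kb of a member. The cluster of Cxcl5, Cxcl3, Cxcl15, Cxcl1 and Cxcl2 was an exception, with 6 and 8 peaks and 4 replicated regions, of which 1, at Cxcl1, lay within 10 kb of a member. Without the clustered genes, the mean difference between members and other genes at 6 h was −12.6 points in place of −23.3. Genes of a cluster share their surroundings and are not independent. Ccl21a to Ccl21d, Ccl27a and Ccl27b, and Il11ra1 and Il11ra2 are near-identical copies, and how reads that fit several copies were treated is not given in the sources used here.

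Member genes are short, with a median of 8782 bp against 17214 bp for other genes, and short genes had fewer regions. Under 5 kb, 10 of 42 members had a replicated 6 h region, which is 23.8% (interval 12.1 to 39.5), and 30.3% of other genes of that length had one. For peaks of a single library in this class the shares were 28.6% and 31.2% in 6 h replicate 1 and 35.7% and 35.5% in replicate 2. Between 5 and 20 kb the shares were 21.8% (95% CI 11.8 to 35) and 56.0%, and between 20 and 100 kb 40% (95% CI 23.9 to 57.9) and 62.4%. Thus the interval of the shortest genes included the share of other short genes, and those of the next longer classes did not. With other genes weighted to the length classes of the members, the difference at 6 h was −19.6 points. Ends of genes outside the family were also counted within 10 kb, leaving out ends of other members. Among the 86 members with no such end, 15 had a region, or 17.4%, against 34.8% of other genes without one. Among the 50 with such an end, 44.0% had a region, against 65.2%.

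Start sites were examined on their own. The promoter table held 104 of the 136 members. A replicated 6 h region covered the start of 10 of them, which is 9.62% (interval 4.71 to 17.0), and the starts of 35.9% of 17387 other genes. By library, 10 and 19 of the 104 starts lay inside a peak at 6 h, against 33.0% and 41.0% of other genes. At 0 h there were 0 and 3, against 1.02% and 5.56%. The genes with a covered start were Ccl25, Cxcr3, Il11ra1, Il18, Il1rap, Il3ra, Il4i1b, Il6ra, Il6st and Il9r. By length class, the shares were 3.23% against 18.6% under 5 kb, 7.69% against 37.9% at 5 to 20 kb and 16.7% against 44.7% at 20 to 100 kb. Over 100 kb, 1 of 4 members had a covered start, an interval of 0.631 to 80.6% that includes the 38.7% of other genes.

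**Figure D5:**
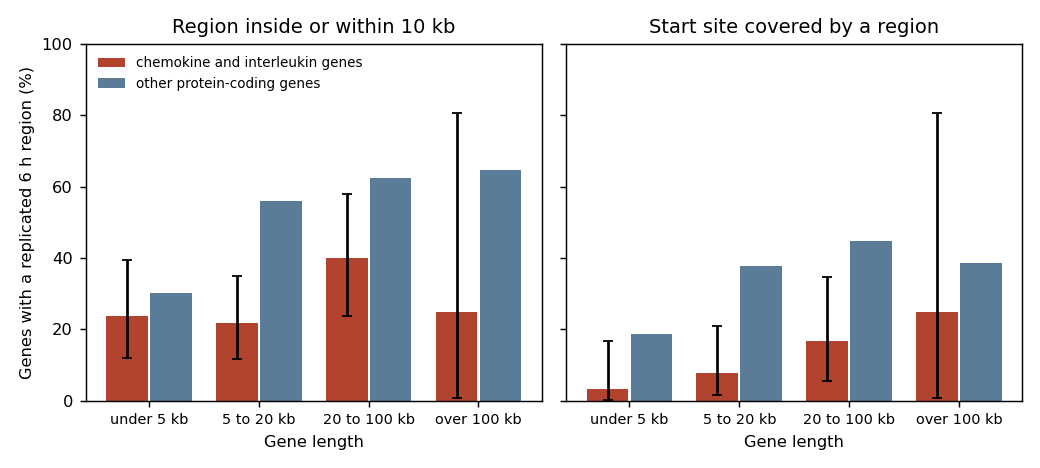
Share of genes (y axis, percent) with a replicated 6 h region inside the gene or within 10 kb (left) and with the start site inside such a region (right), by gene length class (x axis), for chemokine and interleukin genes (red, with exact 95% binomial intervals) and other protein-coding genes (blue). Left, the shares under 5 kb are 23.8% and 30.3%, and right, they are 3.23% and 18.6%.

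Rank and position were compared between the regions at members and those at other genes. The median mean percentile of fold was 60.4 for the 57 member regions and 58.1 for the 14446 others, and 8 of 57, or 14.04% (95% CI 6.26 to 25.8), ranked above percentile 90, against 11.1%. Both sets had a median width of 631 bp. The summit lay within 1 kb of a protein-coding gene end for 29 of 57, or 50.9% (95% CI 37.3 to 64.4), against 53.6%. The nearest end was a member's end for 36 regions and that of a gene outside the family for 21, of which 14 were within 1 kb. Regions inside a member gene numbered 30. For 9 of the 37 members, no region lay inside the gene or had that gene's end as its nearest. The same counts were not taken for other genes, so whether they are usual was not tested. Per length of sequence, members of at most 100 kb had 12.2 replicated 6 h regions per Mb of gene and flanks, against 17.1 for other genes of that size.

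Genes that act downstream of these receptors were taken as further lists. Of 19 JAK, STAT and SOCS genes, 18 had a replicated 6 h region, or 94.7%, and 1, Stat6, had one at 0 h, against 4.12% of other genes. In single 0 h libraries, 2 of the 19, or 10.5%, had a peak in replicate 1, against 4.43% of other genes. In 0 h replicate 2, 8 of the 19, or 42.1%, had one, against 15.2% of other genes. Among them Socs3, a feedback inhibitor of gp130 signalling, had 31.3 and 43.1 at 6 h, and Stat5b had 27.5 and 40.4. Of 16 MYD88 and NF-kappaB genes, 14 had a region at 6 h, or 87.5%, among them Nfkbia, which encodes the inhibitor of NF-kappaB, with 21.8 and 32.7. At 0 h, 0 of the 16 had a replicated region or a peak in replicate 1, against 4.12% and 4.43% of other genes. In 0 h replicate 2, 3 of the 16 (Irak2, Nfkb2 and Nfkbiz), or 18.8%, had a peak, against 15.2% of other genes. Both lists lay above the 53.3% of other protein-coding genes at 6 h, and the difference from the receptors was not tested. Of 11 other genes of the chemokine system, 2 had a 6 h region, Cx3cl1 and the scavenging receptor Ackr2. Granulosa markers had a region at 9 of 10 genes at 6 h and at 4 of 10 at 0 h (Amh, Foxl2, Inha and Nr5a2). Leukocyte markers had a replicated region at 0 of 15 genes at 0 h and at 4 of 15 at 6 h, among them Ptprc with 26.3 and 47.7 and Cd68 with 20.7 and 26.6. Both of these also had a peak in 0 h replicate 2. Endothelial and theca markers had one at 4 of 8 at 6 h and at 1, Ptch1, at 0 h. Some regions counted for more than 1 listed gene. The only region of the marker Insl3 was also the only one of Jak3, with 4.44 and 8.71. Stat3 and Stat5a had the same strongest region. A binding site at a marker gene is no measure of cells present, and the part of leukocytes in the member peaks was not tested.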

How the data were processed

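Per the submitters' processing notes, the authors used Bowtie2 2.2.5, MACS2 and build mm10, which is GRCm38. Per the labels, sequencing gave 75 nt single-end reads. The deposited lists, 1 per ChIP library, give each peak's interval, summit, fold (a ratio of ChIP to local background) and, as −log10, p-value and q-value. Fold and −log10 p are the authors' values and were ranked only within a list. The lists give no read depth. Summit pileups were recovered as the whole number that gives both fold and −log10 p under a Poisson model. The lowest −log10 p was 9.01 to 9.18. MACS2 settings and read filters are not given in the sources used here.

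Genes, coordinates (counted from 1) and start sites came from RefSeq tables of GRCm38.p6. A gene was called when at least 1 summit lay inside it or within 10 kb. Replicated regions merged peaks of both replicates that shared at least 1 bp, with the mean of the summits of the highest peaks as summit. Shares carry exact Clopper-Pearson 95% intervals. Time points were compared by exact permutation over libraries, 2 against 2. Named genes were, by rule, members with a replicated 0 h region (none) and then those with the highest mean percentile of fold at 6 h, up to 25. All other members named, such as Il1rap, Il9r, Il11ra2, Il1rapl1, Il1rapl2 and the genes of clusters, were chosen after their values were seen. The member genes and lists were chosen with earlier results of these data known. Steps were tested on simulated data. Python 3.11.15, pandas 2.3.3 and scipy 1.17.1 were used. Inputs entered only through the peak calls. Some genes are not reported here by name.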

Additional observations from a re-analysis of the deposited data

How the results depend on the processing

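The higher share of members with a peak at 6 h and the lower share of members than of other genes kept their sign under all alternatives run, but not their size. The member difference between time points, 32.4 points as reported, was 1.10 with 948 peaks per library, 20.6 within 1 kb and 54.4 within 50 kb. The difference between members and other genes at 6 h was −28.1 points within 1 kb, −9.48 within 50 kb, −25.3 at a −log10 q of at least 20, −3.25 with 948 peaks per library, −21.4 for genes of at most 100 kb, −19.6 with other genes weighted to the member length classes and −12.6 without clustered members, the last chosen after seeing the data. Its change from 0 h to 6 h turned to 0.575 within 50 kb (exact permutation p = 1) and to 1.37 with equal numbers of peaks, and the cause was not tested. Members with a replicated 6 h region numbered 23, or 16.9%, within 1 kb, against 45.8% of other genes. Within 50 kb they numbered 76, or 55.9%, against 68.9%. At a −log10 q of at least 20 there were 23, or 16.9%, against 43.5%, and with equal numbers 0 against 3.22%. A single 6 h library gave 40 to 55 members, against 53.9 to 62.6% of other genes. At 0 h, 5 members, or 3.68%, had a replicated region within 50 kb, against 8.79% of other genes. A single 0 h library gave 0 to 7 members, against 4.43 to 15.2% of other genes. Regions at 6 h overlapping a 0 h peak were 0% at a −log10 q of at least 20 and 0 to 12.3% without 1 library. Leaving out libraries gave differences between time points of 26.8 to 37.9 points, differences from other genes of −10.0 to −4.43 at 0 h and −24.5 to −22.2 at 6 h, changes of −18.9 to −13.3 points, and shares of 42.5 to 54.5% of member summits near gene ends. With the replicate number as a block, the differences of 32.4 and −16.1 points had an exact paired permutation p of 0.5, the smallest possible. The labels give only a shared number. The deviations of peak counts per gene correlated at 0.0690 between time points. A p of 0.333 is the smallest the design allows and says nothing about stability. Of 74 alternative values, 2 changed sign and 15 moved by more than the error or, for counts, by more than 1.5 times; for differences between time points only the sign was compared, so the other 57 include large shifts.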
